A study of Homo sapiens with 8 samples.

Results

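The response of cytokine-inflamed hIECs to PM10 was examined by setting 2 libraries of inflamed hIECs with PM10 directly against 2 libraries of inflamed hIECs, which are 4 of the 8 RNA-seq libraries of the series. The members of the comparison are the 13016 of 60558 listed genes that reached 1 FPKM (fragments, normalised to transcript length and library size) in at least 2 of these 4 libraries. No gene was chosen by its change against normal hIECs. The cells are labelled hIECs, for human intestinal epithelial cells, and were differentiated in 2D culture from H9, a widely used human embryonic stem cell line. For 10 days the inflamed hIECs were given the cytokines IFNγ and TNFα, each at 50 ng/ml. The inflamed hIECs with PM10 had the same cytokines and, on the last 7 days, also 100 μg/ml PM10, a commercial reference dust. Normal hIECs received neither cytokine, and normal hIECs with PM10 received the dust alone at the same dose and for the same 7 days. The sample labels record 10 days of treatment for every group. Each group had 2 libraries and all cultures came from 1 stem cell line. Nothing states whether the 2 libraries of a group came from separate cultures, so the p-values measure only the spread between these libraries.

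PM10 is the inhalable fraction of airborne particles, a mixture of soot, polycyclic aromatic hydrocarbons, metals and mineral dust, part of which is swallowed with mucus and reaches the gut. Aromatic hydrocarbons bind the aryl hydrocarbon receptor, which then enters the nucleus and switches on genes of xenobiotic metabolism, above all the CYP1 family. IFNγ acts through JAK kinases on guanylate-binding proteins, antigen presentation genes and CXCR3 ligands, while TNFα acts through NF-κB and the AP-1 kinases on chemokines and adhesion molecules.

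The 4 libraries held between 12678 and 12940 genes at 1 FPKM or more, and the lowest value above 0 in them was 0.211 to 0.228 FPKM. The read depth behind a value is unknown, since FPKM holds no counts. Between 15.5% and 16.9% of the FPKM sum came from mitochondrial DNA. Across genes, Spearman's correlation was 0.991 between the inflamed libraries, 0.992 between the inflamed libraries with PM10 and 0.978 to 0.979 between the groups. The labelled cell type was checked against its markers. Of 28 intestinal epithelial markers, 8 or 9 reached 1 FPKM in each of the 4 libraries and 15 were listed at 0 in all of them, among them CDX2 (the intestinal homeobox factor), VIL1 (villin of the brush border), MUC2 (goblet cell mucin), CHGA (of endocrine cells) and LYZ (of Paneth cells). EPCAM and CDH1, which mark epithelium in general, did not exceed 0.385 FPKM. The keratins KRT8 and KRT18 were abundant, with KRT8 at 209.6 and 219.5 FPKM in inflamed hIECs and 195 and 185 FPKM with PM10. In contrast, 18 or 19 of 19 mesenchymal markers reached 1 FPKM in each library. Their summed level was 3709 and 3743 FPKM in inflamed hIECs and 3051 and 3014 FPKM with PM10. Of 17 neuronal and glial markers 9 reached 1 FPKM in each of the 4 libraries. Their summed level was 214.7 and 217.3 FPKM in inflamed hIECs and 218.7 and 213.8 FPKM with PM10. None of 13 endothelial and blood cell markers reached 1 FPKM. These markers go against the label of an intestinal epithelium, and hIECs stands here only for the name the study gives the cells.

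Differences are given on the log2(FPKM + 1) scale, on which 1 corresponds to 2-fold for abundant genes and to more than that for weak ones. A gene was called when its adjusted p-value in limma was under 0.05. PM10 changed 2188 of the 13016 genes (16.8%), of which 922 were higher (7.08%) and 1266 lower (9.73%). At an unadjusted p-value under 0.05 there were 4363. The values of the 2 groups did not overlap for any of the 2188 called genes, nor for 8661 of all 13016 genes. A lack of overlap, where it is described below, therefore adds nothing to a call. Most of the changes were small. The median size of a called difference was 0.395, and 1515 of the called genes (69.2%) moved by less than 0.5. Counts of gene lists are given with their shares of higher and lower members, beside these shares over all genes. A change of at least 2-fold was seen for 34 genes that rose (0.261%) and 60 that fell (0.461%). The median difference of all genes was 0.00078. Leaving out 1 of the 4 libraries lowered the calls to between 271 and 295 higher genes and between 469 and 525 lower genes. A comparison of 2 libraries with 2 allows no exact permutation p-value under 0.333 for a single gene. At the end of each group of genes, the named genes are given whose call was lost under at least 1 alternative setting, in most cases the omission of 1 of the 4 libraries, with the highest adjusted p-value reached.

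**Figure D1:**
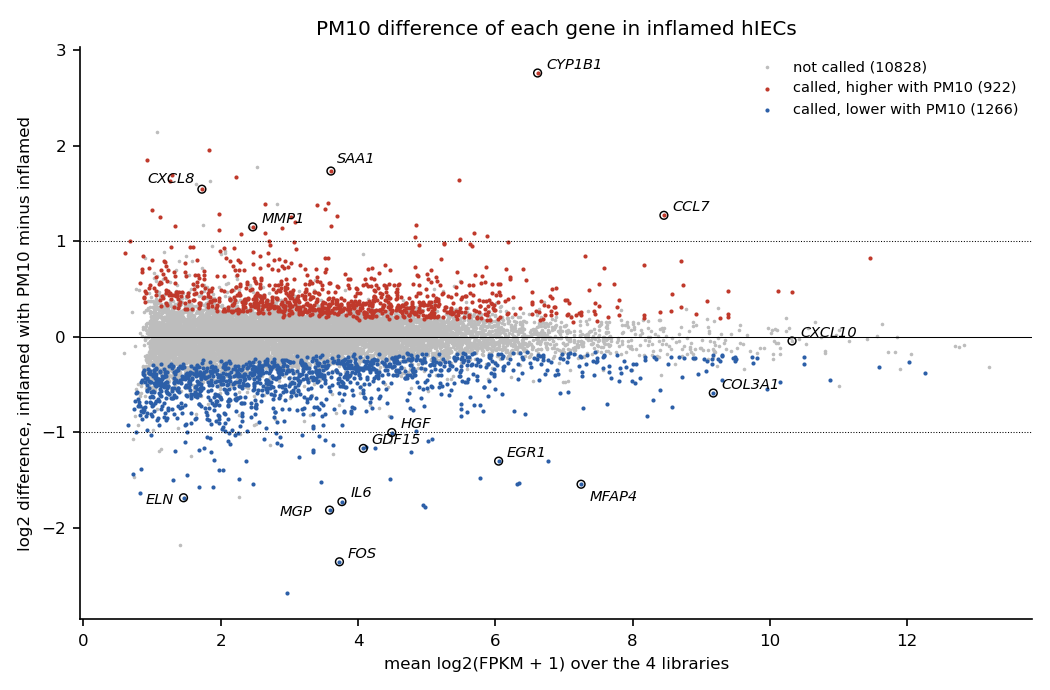
PM10 difference in inflamed hIECs (with minus without dust, vertical axis, log2 scale) against the mean level over the 4 libraries (horizontal axis, log2(FPKM + 1)), with 1 point for each of 13016 genes and dotted lines at 2-fold. The 922 red and 1266 blue points are the called genes, most of them between the dotted lines, with CYP1B1 highest at 2.76 and FOS, at -2.35, among the lowest.

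The strongest increase was that of CYP1B1, a cytochrome P450 under the aryl hydrocarbon receptor that oxidises polycyclic hydrocarbons and oestrogens. The gene lies at chr2:38066973-38109902 in GRCh38 and stood at 37.6 and 35.7 FPKM in inflamed hIECs and 254 and 254 FPKM with PM10 (log2 difference 2.76, SE 0.07, adjusted p = 5.8e-06). The 2 libraries of each group lay close together and far from the other group. TIPARP, a receptor target that ADP-ribosylates and restrains the receptor itself, was at 3.37 and 3.205 FPKM in inflamed hIECs and 8.13 and 8.11 FPKM with PM10 (log2 difference 1.09, SE 0.11, adjusted p = 0.0011). Both of its PM10 libraries lay far above those without PM10. In normal hIECs, the dust moved the same genes, with CYP1B1 at 6.91 and 5.95 FPKM without and 65.7 and 62.8 FPKM with PM10 (difference 3.14, adjusted p = 2.2e-06) and TIPARP at 3.704 and 2.71 FPKM without and 5.15 and 5.13 FPKM with it (difference 0.55, adjusted p = 0.023). The difference between inflamed and normal cells did not pass the adjusted threshold for CYP1B1 (inflamed minus normal -0.38, 95% CI -0.60 to -0.15, adjusted p = 0.061) or for TIPARP (0.53, 95% CI 0.18 to 0.89, adjusted p = 0.081), though both intervals, which are not adjusted for the number of genes, leave out 0. CYP1A1, the best known receptor target, was listed at 0 in both inflamed libraries and at 0.432 and 0.515 FPKM with PM10, below the level needed for the test. Of the 6 receptor genes tested, these 2 rose and none fell (33.3% and 0%, all genes 7.08% and 9.73%). The receptor gene AHR differed by 0.13 (95% CI -0.10 to 0.36) and NQO1, a quinone reductase under both this receptor and NRF2, by 0.12 (95% CI -0.05 to 0.28), neither of them called. No call named here was lost under any alternative.

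The receptor binds the core letters GCGTG. The 250 bases before the start of TIPARP, shown because the gene rose in both kinds of cells and its window is in the table, hold this motif 2 times, 208 and 142 bases before the start (both strands were searched). The sequence is from RefSeq, GRCh38.p14, chr3:156674340-156674589, plus strand, with the motif in capitals, here read on the other strand as CACGC.
TIPARP: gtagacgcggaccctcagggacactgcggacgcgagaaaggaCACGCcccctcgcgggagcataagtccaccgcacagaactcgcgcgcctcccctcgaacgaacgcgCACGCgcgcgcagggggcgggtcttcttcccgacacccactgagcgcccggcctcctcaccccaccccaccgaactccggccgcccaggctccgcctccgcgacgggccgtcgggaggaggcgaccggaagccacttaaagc
The motif is common. It was found in 36.3% of 27305 RefSeq promoter windows of 300 bases, in 51.2% of those of the genes tested, in 47.3% of the genes that rose and in 47.6% of those that fell. A match is a description of letters and not a site of binding. CYP1B1 has no entry in that table.

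Genes of the immediate early response, which growth factors and stress switch on within minutes through serum response factor and AP-1, moved in both directions. FOS, a subunit of AP-1 encoded at chr14:75278826-75282230, showed the largest decrease of any gene without an overlapping neighbour, from 29.6 and 28.4 FPKM in inflamed hIECs to 4.999 and 4.73 FPKM with PM10 (log2 difference -2.35, SE 0.10, adjusted p = 6.6e-05). EGR1, a zinc finger factor induced by the same signals, fell from 101 and 104 FPKM to 40.2 and 42.1 FPKM (log2 difference -1.30, SE 0.08, adjusted p = 0.00015). In both genes all 4 values kept the groups apart with a wide gap. The related EGR3 (-0.76) and EGR2 (-0.39) fell as well, as did ZFP36, which destabilises cytokine mRNAs (-0.65), the phosphatase DUSP1 (-0.51), the AP-1 subunits JUND (-0.38) and JUNB (-0.32), and IER5 (-0.24). On the other side stood FOSL1, the AP-1 subunit FRA1, which was at 6.75 and 8.03 FPKM in inflamed hIECs and 19.01 and 19.1 FPKM with PM10 (log2 difference 1.26, SE 0.14, adjusted p = 0.0016). MYC (0.43), KLF6 (0.39), BTG2 (0.33), CCN1 (0.26) and IER3 (0.23) rose by less. In total, 6 of 25 tested members rose and 9 fell (24% and 36%, all genes 7.08% and 9.73%), with a median of -0.09, and JUN itself was at -0.04 (95% CI -0.16 to 0.09). Without 1 of the 4 libraries compared, 1 higher and 3 to 6 lower were called. In normal hIECs the same dust left FOS at 16.8 and 21.2 FPKM without and 23.9 and 23.8 FPKM with it (difference 0.32, adjusted p = 0.077) and EGR1 at 80.3 and 95.8 FPKM without and 101 and 104 FPKM with it (0.23, adjusted p = 0.11). The interaction, the difference in inflamed minus that in normal hIECs, was -2.68 for FOS (adjusted p = 0.00032) and -1.53 for EGR1 (adjusted p = 0.0011). FOS, EGR1, EGR3 and FOSL1 held their calls under every alternative, and each of the other calls named here was lost under at least 1 (adjusted p up to 0.16).

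The promoter of EGR1 is shown because it carries serum response elements, written as CC, 6 letters A or T and GG, the site through which this group is classically induced. The window before its start (RefSeq, GRCh38.p14, chr5:138465229-138465478, plus strand) holds 2 such elements, in capitals, 105 and 83 bases before the start.
EGR1: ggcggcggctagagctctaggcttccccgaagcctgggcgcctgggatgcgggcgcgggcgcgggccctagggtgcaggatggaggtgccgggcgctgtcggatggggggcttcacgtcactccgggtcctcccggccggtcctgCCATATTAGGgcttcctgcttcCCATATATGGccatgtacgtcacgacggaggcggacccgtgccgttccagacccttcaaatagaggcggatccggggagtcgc
This element was present in 1.29% of all windows, in 1.10% of those of tested genes, in 1.37% of the genes that rose and in 2.56% of the genes that fell. EGR3 and FOSL1 have no entry in the table.

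**Figure D2:**
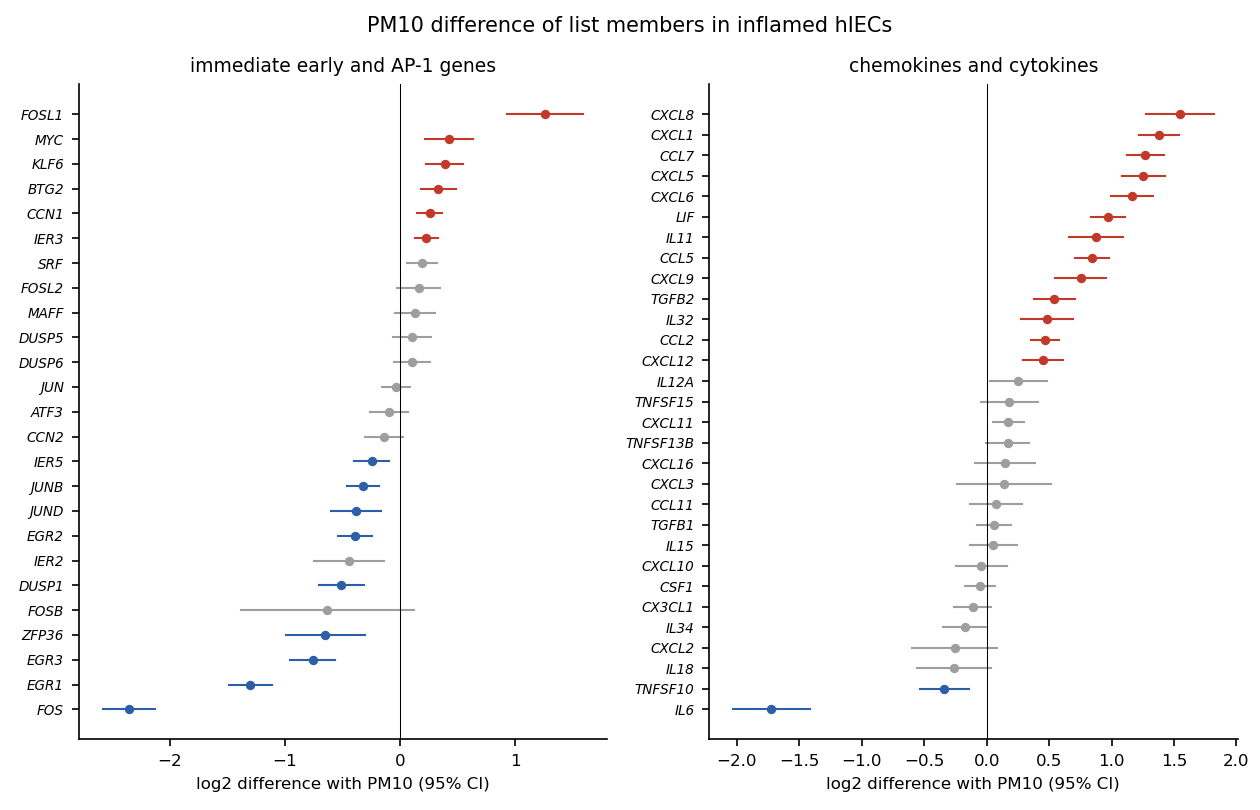
Differences with PM10 in inflamed hIECs for the 25 tested immediate early genes (left) and the 30 tested chemokines and cytokines (right), on the log2 scale, with 95% confidence intervals from limma, red for called higher, blue for called lower and grey for not called. FOS at -2.35 and EGR1 at -1.30 lie at the low end opposite FOSL1 at 1.26, and most chemokines lie at or above 0 while IL6 lies at -1.72.

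Several chemokine genes rose on top of the cytokine treatment. CXCL8 (interleukin-8) was at 1.04 and 0.834 FPKM in inflamed hIECs and 4.83 and 4.46 FPKM with PM10 (log2 difference 1.54, SE 0.12, adjusted p = 0.00038), and CXCL1, a ligand of the same receptor CXCR2, was at 5.56 and 5.57 FPKM in inflamed hIECs and 16.4 and 15.8 FPKM with PM10 (log2 difference 1.38, SE 0.07, adjusted p = 9.2e-05). CXCL5 stood at 4.17 and 4.39 FPKM in inflamed hIECs and 11.9 and 11.3 FPKM with PM10 (log2 difference 1.26, SE 0.08, adjusted p = 0.00014). These 3 are weakly expressed genes, and each was higher in both PM10 libraries. The monocyte attractant CCL7 was abundant, at 226 and 224 FPKM in inflamed hIECs and 545 and 544 FPKM with PM10 (log2 difference 1.27, SE 0.06, adjusted p = 9.2e-05). CXCL6 (1.16), LIF (0.97), IL11 (0.88), CCL5 (0.85), CXCL9 (0.75), TGFB2 (0.54), IL32 (0.48), CCL2 (0.46) and CXCL12 (0.45) rose too. IL6, the cytokine of the acute phase response, went the other way, from 26.4 and 21.3 FPKM to 6.45 and 6.51 FPKM (log2 difference -1.72, SE 0.13, adjusted p = 0.0004). LIF and IL11, which signal through the same receptor subunit gp130 as IL6, thus differed from it in sign. TNFSF10 fell by less (-0.34). Not all chemokines rose, and CXCL2 (-0.26) and CXCL3 (0.14), which like CXCL8 attract neutrophils, and CX3CL1 (-0.11), which attracts monocytes, were not called. Of 30 tested chemokines and cytokines, 13 rose and 2 fell (43.3% and 6.67%, all genes 7.08% and 9.73%), with a median of 0.18. Leaving out 1 of these 4 libraries left 12 higher and 1 lower. SAA1 and SAA2, acute phase apolipoproteins with nearly identical sequences whose reads may be shared, were at 4.86 and 6.59 FPKM in inflamed hIECs and 21.3 and 21.05 FPKM with PM10 (1.73, SE 0.12, adjusted p = 0.00025) and 1.45 and 1.77 FPKM in inflamed hIECs and 6.92 and 7.75 FPKM with PM10 (1.67, SE 0.10, adjusted p = 0.00012). CCL1, a T cell attractant, reached 3.43 and 3.39 FPKM with PM10 from 0.458 and 0.285 FPKM (log2 difference 1.69, SE 0.10, adjusted p = 0.00011). SAA1, SAA2, CCL1 and CXCL5 were listed at 0 in all 4 normal libraries, which lowers the pooled spread. In a fit of the 4 inflamed libraries alone, their adjusted p-values were 0.0033, 0.0018, 0.0018 and 0.0012. Under at least 1 alternative the calls of CXCL9, IL32 and TNFSF10 were lost (adjusted p up to 0.28).

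The letters TGANTCA, with N for any letter, were searched as a loose form of the AP-1 motif. Binding was not tested, and the middle letter is C in CXCL8, T in CCL7 and A in MMP10. The motif lies before several of the genes that rose, and 3 windows are shown with it in capitals. They are from RefSeq, GRCh38.p14, at chr4:73740319-73740568 (plus strand) for CXCL8, chr17:34269971-34270220 (plus strand) for CCL7 and chr11:102780629-102780878 (minus strand, printed 5′ to 3′ of the gene) for MMP10, a matrix protease described further on.
CXCL8: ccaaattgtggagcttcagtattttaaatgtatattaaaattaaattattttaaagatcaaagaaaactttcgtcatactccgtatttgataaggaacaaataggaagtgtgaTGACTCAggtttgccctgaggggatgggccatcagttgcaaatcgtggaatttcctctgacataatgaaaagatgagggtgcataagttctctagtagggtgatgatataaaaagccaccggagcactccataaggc
CCL7: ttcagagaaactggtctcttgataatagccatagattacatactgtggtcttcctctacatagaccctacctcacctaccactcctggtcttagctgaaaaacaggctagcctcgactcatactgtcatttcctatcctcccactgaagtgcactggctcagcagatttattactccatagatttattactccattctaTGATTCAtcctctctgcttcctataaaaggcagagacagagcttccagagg
MMP10: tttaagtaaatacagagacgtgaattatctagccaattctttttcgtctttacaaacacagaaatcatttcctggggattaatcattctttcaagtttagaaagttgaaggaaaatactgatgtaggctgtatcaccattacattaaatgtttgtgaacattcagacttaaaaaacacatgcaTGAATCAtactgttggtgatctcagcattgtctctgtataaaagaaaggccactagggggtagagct
The motif starts 137 bases before the start of CXCL8, 51 before CCL7 and 67 before MMP10. Searched on both strands, it was found in 7.76% of all windows, in 4.32% of those of tested genes, in 7.10% of the genes that rose and in 4.78% of the genes that fell. SAA1, SAA2, LIF, MMP1 and MMP13 have no entry in the table.

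Interferon-induced genes were called with PM10 at shares near those of all genes. Of 49 tested, 40 were not called, against 10828 of all 13016 genes. CXCL10, a CXCR3 ligand and a hallmark of IFNγ, was at 1314 and 1283 FPKM in inflamed hIECs and 1254 and 1265 FPKM with PM10 (difference -0.04, 95% CI -0.25 to 0.16, adjusted p = 0.76). The guanylate-binding protein genes GBP1 and GBP5 differed by -0.10 (95% CI -0.29 to 0.09) and -0.07 (95% CI -0.19 to 0.06). IDO1, which degrades tryptophan, was at 128 and 125 FPKM in inflamed hIECs and 147 and 147 FPKM with PM10 (0.21, 95% CI 0.02 to 0.40, adjusted p = 0.11). IDO1 was called, however, in a fit of the 4 inflamed libraries alone and after quantile normalization. Of 49 tested interferon-induced genes 3 rose and 6 fell (6.12% and 12.2%, all genes 7.08% and 9.73%), with a median of -0.04. When 1 of the 4 libraries was left out, 0 to 1 higher and 2 to 4 lower were called. IFITM1, which blocks viral entry, dropped from 491 and 491 FPKM to 289 and 301 FPKM (log2 difference -0.74, SE 0.09, adjusted p = 0.0023), followed by IFITM3 (-0.47), IFI6 (-0.41), IFIT1 (-0.36) and ISG15 (-0.22), and by the feedback inhibitor SOCS3 (-0.44). The RNA sensor gene DDX58 (0.23) and IFIT3 (0.33) were among those that rose. Among 21 antigen presentation genes 5 fell and 1 rose (23.8% and 4.76%, all genes 9.73% and 7.08%), with a median of 0.03. With 1 library fewer, 0 higher and 1 lower were called. HLA-DRA, the class II alpha chain, fell from 17.9 and 19.1 FPKM to 10.7 and 10.1 FPKM (log2 difference -0.77, SE 0.10, adjusted p = 0.0032), HLA-DMB (-0.38) and HLA-DRB1 (-0.26) by less, and B2M, the class I light chain, from 4458 and 4689.9 FPKM to 3712 and 3902 FPKM (-0.26). CTSS, the protease that trims the class II invariant chain, rose (0.35). HLA genes are highly similar, and reads of one can be assigned to another. IFITM1 and IFI6 held their calls under every alternative, and each of the other calls named here was lost under at least 1 (adjusted p up to 0.61).

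**Figure D3:**
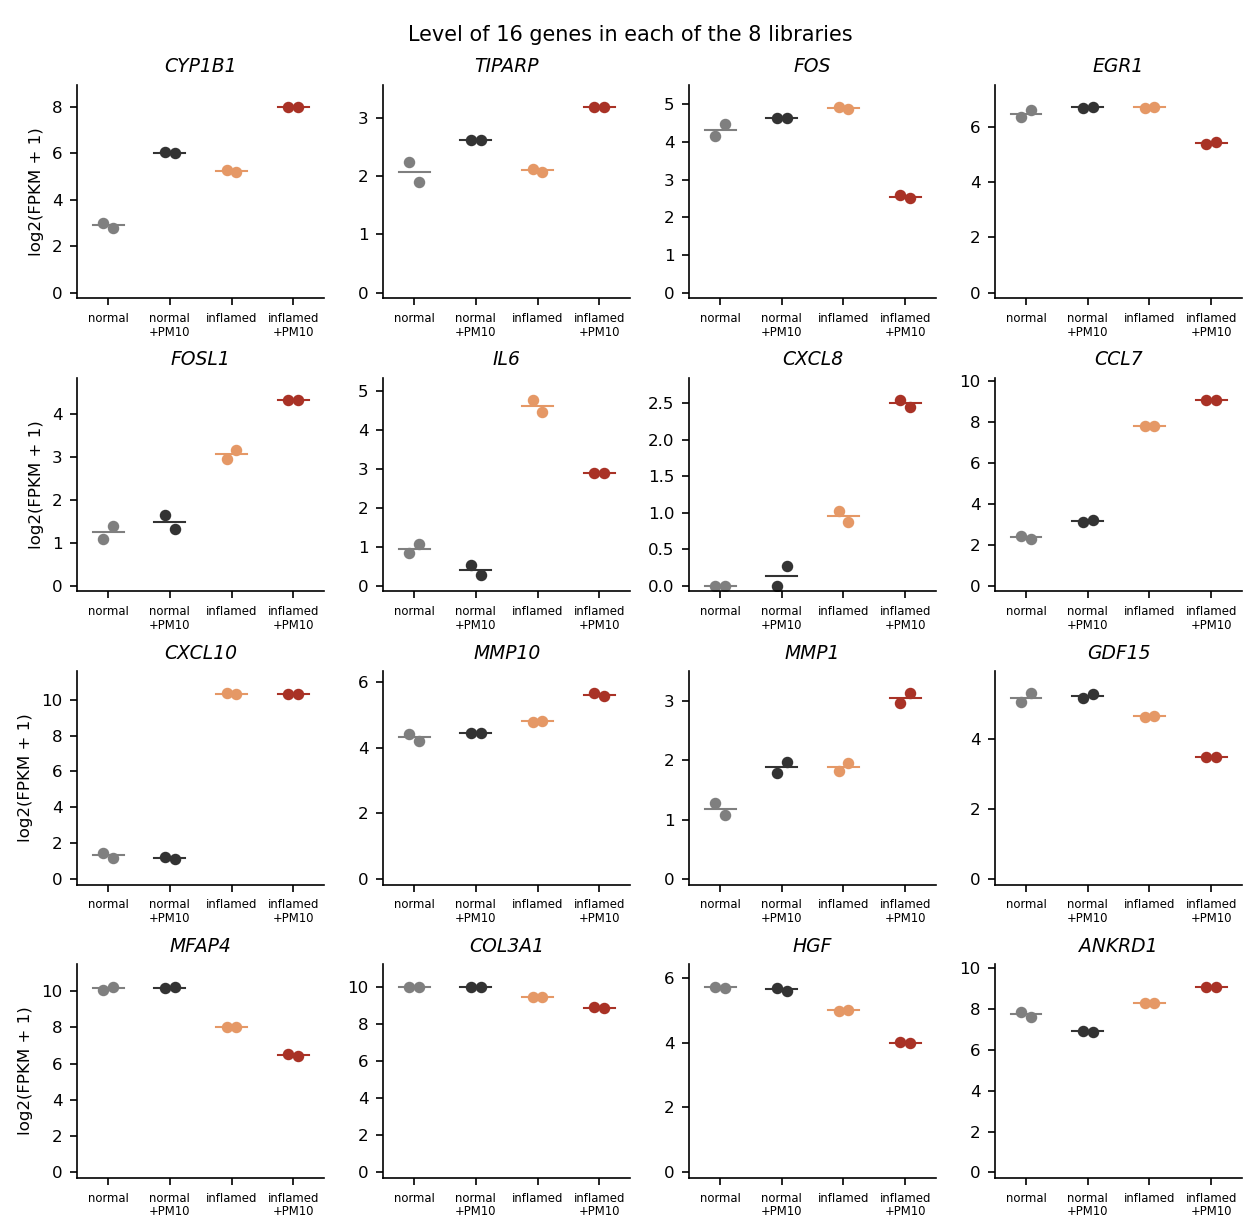
Level of 16 genes as log2(FPKM + 1) in each of the 8 libraries, with 2 points per group and a bar at the mean. CYP1B1 is higher with PM10 in both kinds of cells, CXCL10 is high in both inflamed groups, FOS and EGR1 are lowest in inflamed hIECs with PM10, and MFAP4, COL3A1 and HGF are lower in inflamed than in normal hIECs and lowest in inflamed hIECs with PM10.

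NF-κB genes split. SOD2, the mitochondrial superoxide dismutase, was at 57.9 and 51.2 FPKM in inflamed hIECs and 86.2 and 93.3 FPKM with PM10 (log2 difference 0.71, SE 0.16, adjusted p = 0.026), and the negative regulators CYLD (0.82), TNIP1 (0.54) and TNFAIP3 (0.38) rose together with BIRC3 (0.51) and the adhesion molecule ICAM1 (0.47). VCAM1, the other main leukocyte adhesion molecule of the response, fell from 73.96 and 72.4 FPKM to 41.5 and 43.2 FPKM (log2 difference -0.78, SE 0.09, adjusted p = 0.0017), as did the IκB family members NFKBIZ (-0.56) and BCL3 (-0.47). TNFAIP2 was lower as well (-0.35). The subunits NFKB1 (0.0018) and RELA (0.10) were not called. Of 24 members 6 rose and 4 fell (25% and 16.7%, all genes 7.08% and 9.73%), with a median of 0.10. Fits lacking 1 of these 4 libraries called 3 to 5 higher and 2 lower. Of 12 complement genes 2 fell and none rose (16.7% and 0%, all genes 9.73% and 7.08%), and the complement regulator CFI (-0.55) was among those that fell. Every alternative kept the calls of TNIP1, ICAM1, VCAM1, NFKBIZ and CFI, and at least 1 removed each of the others named here (adjusted p up to 0.18).

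Among stress pathways, genes of the integrated stress response fell or were not called. This program is run by ATF4 when translation is curbed by amino acid shortage or endoplasmic reticulum stress. None of its 24 tested genes rose and 10 fell (0% and 41.7%, all genes 7.08% and 9.73%), with a median of -0.29. Without 1 of the 4 libraries compared, 0 higher and 5 to 6 lower were called. GDF15, a secreted stress hormone, went from 23.9 and 24.7 FPKM to 10.2 and 10.3 FPKM (log2 difference -1.17, SE 0.08, adjusted p = 0.00029). TRIB3, a pseudokinase target of ATF4, went from 13.5 and 14.2 FPKM to 7.39 and 7.34 FPKM (log2 difference -0.83, SE 0.09, adjusted p = 0.0018). DDIT3, the factor CHOP, was at 23.9 and 23.4 FPKM in inflamed hIECs and 15.5 and 14.1 FPKM with PM10 (log2 difference -0.64, SE 0.15, adjusted p = 0.029), though it overlaps other expressed genes. The serine pathway enzyme PHGDH (-0.64), the mTOR inhibitor DDIT4 (-0.63), the mitochondrial enzymes SHMT2 (-0.53) and MTHFD2 (-0.37), CHAC1 (-0.53), PSAT1 (-0.36) and CEBPB (-0.34) fell as well. ATF4 mRNA was at -0.02 (95% CI -0.35 to 0.31), a factor controlled mainly at translation. The unfolded protein response showed no such decrease. DNAJB9 (0.35), SEL1L (0.35) and CANX (0.42) rose, none of 21 fell (14.3% and 0%, all genes 7.08% and 9.73%), and the chaperone HSPA5 (BiP) differed by -0.04 (95% CI -0.22 to 0.14). Of 14 heat shock genes 5 rose and none fell (35.7% and 0%, all genes 7.08% and 9.73%), with a median of 0.20. HSPA8, the constitutive HSC70, was at 479 and 474 FPKM in inflamed hIECs and 617 and 623 FPKM with PM10 (log2 difference 0.38, SE 0.09, adjusted p = 0.028), and HSPB1 (0.24), DNAJB1 (0.22), HSPA1A (0.21) and BAG3 (0.19) moved by less. HSPA1A is nearly identical to HSPA1B. The count of higher heat shock genes was 2 without the variance trend, 10 in a fit of the 4 inflamed libraries alone and 0 without any 1 of the 4 libraries compared. GDF15, TRIB3, PHGDH, DDIT4 and SHMT2 held their calls under every alternative, and each of the other calls named here was lost under at least 1 (adjusted p up to 0.23).

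The antioxidant program of NRF2 showed no common direction. Of 25 target genes 2 rose and 3 fell (8% and 12%, all genes 7.08% and 9.73%), with a median of 0.02. Leaving out 1 of these 4 libraries left 0 to 1 higher and 0 lower. TXNRD1, the cytosolic thioredoxin reductase, was at 28.5 and 28.95 FPKM in inflamed hIECs and 36.4 and 36.2 FPKM with PM10 (0.32) and OSGIN1 rose (0.47), while FTL, ferritin light chain, fell from 1542 and 1559 FPKM to 1335 and 1339.7 FPKM (-0.21), with PIR (-0.23) and BLVRB (-0.28). HMOX1, the inducible heme oxygenase, was at 4.94 and 4.75 FPKM in inflamed hIECs and 5.17 and 4.75 FPKM with PM10 (difference 0.03, 95% CI -0.16 to 0.22). The metallothionein MT1E, which binds zinc and cadmium and has near-identical copies, was at 11.1 and 10.6 FPKM in inflamed hIECs and 13.7 and 14.2 FPKM with PM10 (0.34, adjusted p = 0.033), and with the zinc transporter SLC39A7 (0.18) it made 2 called genes of 22 (9.09% and 0%, all genes 7.08% and 9.73%). This count was 7 in a fit of the 4 inflamed libraries alone and 0 or 1 without 1 of the 4 libraries compared. Among 19 iron genes 4 rose, CYBRD1 (ferric reductase, 0.56), HFE (0.48), STEAP3 (0.41) and NCOA4, the receptor that delivers ferritin to autophagy (0.31), while FTL fell (21.1% and 5.26%, all genes 7.08% and 9.73%). Of 8 copper genes, SCO1, an assembly factor of cytochrome oxidase (0.44), and the copper importer gene SLC31A1 (0.23) rose, and CCS, the copper chaperone of superoxide dismutase, fell (-0.33) (25% and 12.5%, all genes 7.08% and 9.73%). Among 17 enzymes that handle superoxide and peroxides, SOD2, CYBA (0.35) and GPX3 (0.30) rose, and TXNRD2 (-0.37) and GPX4 (-0.19) fell (17.6% and 11.8%, all genes 7.08% and 9.73%). Every alternative kept the calls of CYBRD1 and CYBA, and at least 1 removed each of the others named here (adjusted p up to 0.22).

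More p53 target genes rose than fell. Of 23 tested targets 12 rose and 1 fell (52.2% and 4.35%, all genes 7.08% and 9.73%), with a median of 0.25. When 1 of the 4 libraries was left out, 4 to 5 higher and 0 lower were called. RRM2B, the p53-induced ribonucleotide reductase subunit, was at 9.83 and 10.5 FPKM in inflamed hIECs and 16.6 and 16.7 FPKM with PM10 (log2 difference 0.66, SE 0.06, adjusted p = 0.00088). TP53I3, an oxidoreductase, was at 31.1 and 27.8 FPKM in inflamed hIECs and 41.8 and 44.5 FPKM with PM10 (log2 difference 0.54, SE 0.08, adjusted p = 0.0042). In neither did the groups overlap. The death receptor genes FAS (0.42) and TNFRSF10B (0.39), the cell cycle inhibitor CDKN1A (0.38), ZMAT3 (0.38), AEN (0.35), BTG2, PLK2 (0.31), GADD45B (0.28) and MDM2 (0.25) moved by less, and FAS and TNFRSF10B overlap other expressed genes. The exception was BBC3 (PUMA, -0.32). Apoptosis genes were mixed, with 6 of 25 higher and 3 lower (24% and 12%, all genes 7.08% and 9.73%). With 1 library fewer, 1 to 2 higher and 0 to 1 lower were called. BMF, a BH3-only activator of cell death, was at 2.96 and 3.196 FPKM in inflamed hIECs and 6.44 and 6.63 FPKM with PM10 (log2 difference 0.89, SE 0.08, adjusted p = 0.00063), and BCL2A1, an inhibitor, rose (0.46) with the DNA sensor gene AIM2 (0.41), whereas BCL2L11 (BIM, -0.49) and MCL1 (-0.19) fell. BAX (-0.08, 95% CI -0.23 to 0.08) was not called. RRM2B, TP53I3, CDKN1A and BMF held their calls under every alternative, and each of the other calls named here was lost under at least 1 (adjusted p up to 0.22).

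Proliferation genes fell or were not called. None of 36 genes of DNA replication and mitosis rose and 7 fell (0% and 19.4%, all genes 7.08% and 9.73%), with a median of -0.13. The mitotic kinase CDK1 was at 27.1 and 25.7 FPKM in inflamed hIECs and 20.1 and 20.4 FPKM with PM10 (log2 difference -0.37, SE 0.06, adjusted p = 0.0056), and KIF20A (-0.42), UBE2C (-0.34), CENPF (-0.27), CCNA2 (-0.26), TK1 (-0.26) and GINS2 (-0.26) were also lower. Fits lacking 1 of these 4 libraries called 0 higher and 0 to 2 lower. In normal hIECs the same list had 25 lower members and a median of -0.42, and CDK1 went from 18.8 and 17.9 FPKM to 10.1 and 10.4 FPKM (-0.79). The decrease was smaller in inflamed cells for CDK1 (inflamed minus normal 0.42, adjusted p = 0.024) and UBE2C (0.63, adjusted p = 0.017). Under at least 1 alternative the calls of CDK1, KIF20A, UBE2C, CENPF, CCNA2, TK1 and GINS2 were lost (adjusted p up to 0.21).

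**Figure D4:**
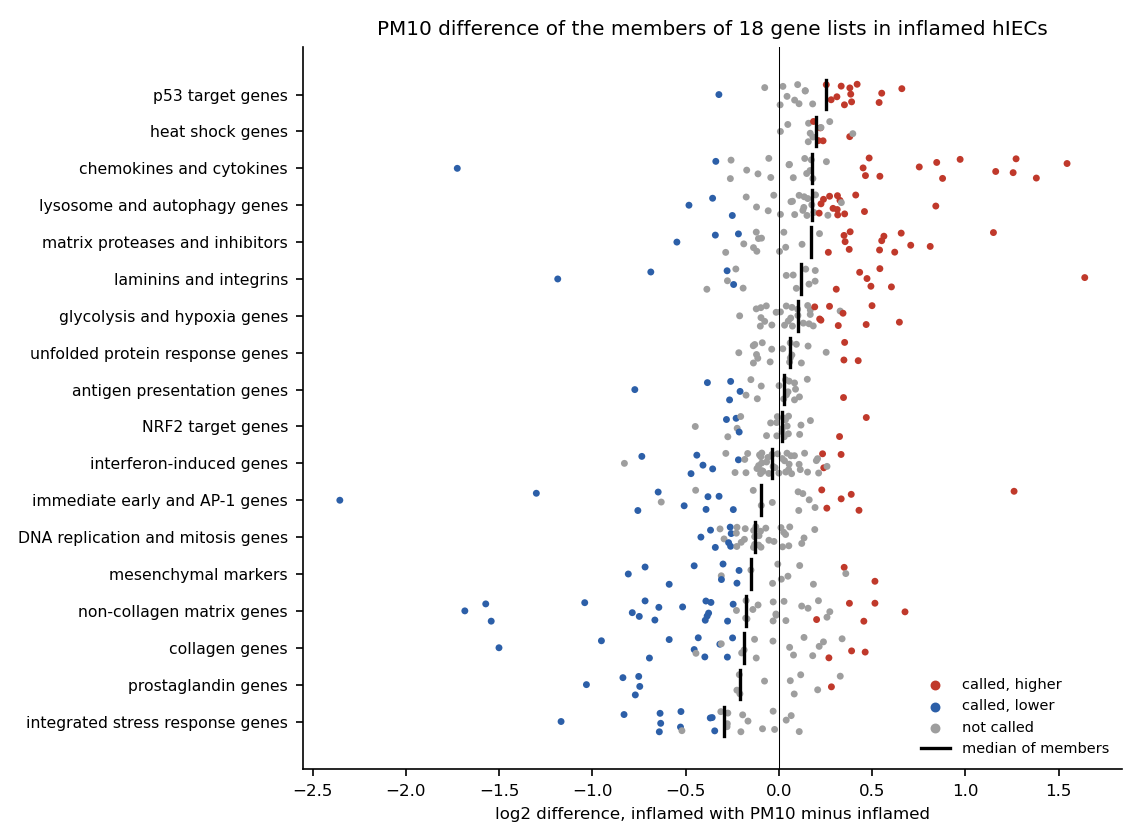
Differences with PM10 in inflamed hIECs (horizontal axis, log2 scale) for the tested members of 18 gene lists, 1 point per gene, red for called higher, blue for called lower and grey for not called, with a black bar at each list's median. The medians run from 0.25 for p53 targets to -0.29 for the integrated stress response, and single genes such as FOS and IL6 lie far from their lists.

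Extracellular matrix genes held several of the largest decreases. Of 39 non-collagen matrix genes 17 fell and 5 rose (43.6% and 12.8%, all genes 9.73% and 7.08%), with a median of -0.18. Without 1 of the 4 libraries compared, 2 higher and 10 to 14 lower were called. MFAP4, a glycoprotein of elastic fibres, went from 257 and 259.9 FPKM to 92.5 and 83.9 FPKM (log2 difference -1.54, SE 0.07, adjusted p = 8.9e-05). ELN, elastin itself, went from 3.798 and 4.05 FPKM to 0.441 and 0.629 FPKM (log2 difference -1.68, SE 0.14, adjusted p = 0.00048). OGN, a small leucine-rich proteoglycan, went from 4.42 and 4.61 FPKM to 1.01 and 0.712 FPKM (log2 difference -1.57, SE 0.10, adjusted p = 0.00015). All 3 were lower in both PM10 libraries, with no overlap. THBS2 (-1.04), EFEMP1 (-0.79), MFAP2 (-0.75), decorin (DCN, -0.72) and biglycan (BGN, -0.67) fell too, while lumican (LUM) rose from 98.1 and 97.1 FPKM to 141 and 139 FPKM (log2 difference 0.51, SE 0.05, adjusted p = 0.00073) and HAPLN1 rose by 0.68. MGP, an inhibitor of calcification made by mesenchymal cells, was outside these lists and fell from 22.6 and 20.5 FPKM to 5.36 and 5.44 FPKM (log2 difference -1.81, SE 0.06, adjusted p = 1.3e-05). No call named here was lost under any alternative.

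Among 27 collagen genes 10 fell and 3 rose (37% and 11.1%, all genes 9.73% and 7.08%), with a median of -0.19. Leaving out 1 of these 4 libraries left 0 to 1 higher and 7 to 8 lower. COL3A1, a fibrillar collagen, went from 706 and 709 FPKM to 475 and 466 FPKM (log2 difference -0.59, SE 0.04, adjusted p = 0.00029), and COL1A2 from 735 and 739 FPKM to 543 and 532 FPKM (log2 difference -0.45, SE 0.04, adjusted p = 0.00082). COL14A1, which sits on fibril surfaces, went from 3.31 and 2.999 FPKM to 0.475 and 0.459 FPKM (log2 difference -1.50, SE 0.11, adjusted p = 0.00029), and the transmembrane COL13A1 from 7.68 and 7.85 FPKM to 3.89 and 3.203 FPKM (log2 difference -0.95, SE 0.08, adjusted p = 0.00046). COL25A1 fell as well (-0.69). COL1A1 lay at -0.31, with 660 and 681 FPKM in inflamed hIECs and 545 and 536 FPKM with PM10, and was not called (adjusted p = 0.098). It was called in a fit of the 4 inflamed libraries alone, and the 2 normal libraries without PM10 stood apart, at 445 and 587 FPKM. COL5A3 (0.46), COL19A1 (0.39) and COL4A2 (0.27) rose. The collagen chaperone SERPINH1 (-0.46), PCOLCE, which enhances procollagen cleavage (-0.38), PPIB (-0.23) and P3H1 (-0.23) were lower as well, while TGM2, which crosslinks proteins, was higher (0.43), in all 5 lower and 2 higher of 24 genes of collagen processing (20.8% and 8.33%, all genes 9.73% and 7.08%). Mesenchymal markers moved with the matrix genes, of which several are members of both lists. Of 19 such markers 8 fell and 2 rose (42.1% and 10.5%, all genes 9.73% and 7.08%), with a median of -0.15. When 1 of the 4 libraries was left out, 1 higher and 5 lower were called. TWIST1, a mesenchymal transcription factor that is no matrix gene, went from 13.7 and 14.6 FPKM to 8.03 and 7.29 FPKM (log2 difference -0.81, SE 0.07, adjusted p = 0.00072), and PDGFRB (-0.31), PDGFRA (-0.30) and VIM (-0.23) were slightly lower. The part of the mesenchymal markers in the matrix result was not tested. In such bulk samples, fewer cells of a type and less RNA per cell cannot be told apart. COL3A1, COL1A2, COL14A1, COL13A1, COL25A1, PCOLCE, TWIST1 and PDGFRB held their calls under every alternative, and each of the other calls named here was lost under at least 1 (adjusted p up to 0.33).

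Genes of matrix-degrading enzymes moved up more often than down. Of 28 proteases and inhibitors 13 rose and 3 fell (46.4% and 10.7%, all genes 7.08% and 9.73%), with a median of 0.17. With 1 library fewer, 10 to 11 higher and 2 lower were called. Interstitial collagenase MMP1 was at 2.54 and 2.89 FPKM in inflamed hIECs and 6.77 and 7.72 FPKM with PM10 (log2 difference 1.15, SE 0.11, adjusted p = 0.00096). Stromelysin-2, encoded by MMP10, was at 26.8 and 27.1 FPKM in inflamed hIECs and 49.6 and 46.5 FPKM with PM10 (log2 difference 0.81, SE 0.07, adjusted p = 0.00087). The urokinase gene PLAU was at 8.31 and 7.86 FPKM in inflamed hIECs and 14.4 and 13.3 FPKM with PM10 (log2 difference 0.71, SE 0.07, adjusted p = 0.00099). MMP13 (0.66), MMP2 (0.62), SERPINE2 (0.54), ADAM12 (0.38) and ADAM19 (0.35) rose as well, and TIMP1, the main inhibitor of these metalloproteases, fell from 1205 and 1198 FPKM to 823 and 821 FPKM (log2 difference -0.55, SE 0.06, adjusted p = 0.002). Genes of adhesion to the basement membrane moved both ways. The laminin-binding and collagen-binding integrin genes ITGA3 (0.60), ITGA1 (0.54, overlapping PELO), ITGA6 (0.49) and ITGB1 (0.31) rose, whereas LAMA4, a laminin of mesenchyme and vessels, fell from 14.8 and 13.7 FPKM to 5.705 and 5.696 FPKM (log2 difference -1.19, SE 0.11, adjusted p = 0.00093) together with ITGA8 (-0.69). In all, 7 of 22 laminin and integrin genes rose and 4 fell (31.8% and 18.2%, all genes 7.08% and 9.73%), with a median of 0.12. Fits lacking 1 of these 4 libraries called 4 to 5 higher and 2 lower. Among 21 contractile genes 5 rose and 2 fell (23.8% and 9.52%, all genes 7.08% and 9.73%). Without 1 of the 4 libraries compared, 1 higher and 0 lower were called. The caldesmon gene CALD1 was at 174 and 174 FPKM in inflamed hIECs and 258 and 253 FPKM with PM10 (log2 difference 0.55, SE 0.06, adjusted p = 0.0015). ACTN1 (0.31) and LMOD1 (0.27) rose, SYNPO2 (-0.53) and CNN3 (-0.21) fell, and ACTA2, smooth muscle actin, differed by 0.04 (95% CI -0.08 to 0.17). Under at least 1 alternative the calls of ADAM19, ITGA1, ITGB1, ACTN1, LMOD1, SYNPO2 and CNN3 were lost (adjusted p up to 0.17).

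Of 15 secreted growth factor genes 3 rose and 3 fell (20% and 20%, all genes 7.08% and 9.73%). HGF, which mesenchyme makes for epithelial MET, fell from 30.5 and 31.2 FPKM to 15.04 and 14.8 FPKM (log2 difference -1.002, SE 0.05, adjusted p = 9.2e-05), and PDGFD (-0.74) and FGF7 (-0.65) fell with it. HBEGF, a ligand of the EGF receptor, was at 43.4 and 44.96 FPKM in inflamed hIECs and 73.9 and 73.8 FPKM with PM10 (log2 difference 0.73, SE 0.08, adjusted p = 0.0012), and PDGFB (0.80) and VEGFC (0.50) rose. Of 28 receptors that raise cell calcium 8 fell and 3 rose (28.6% and 10.7%, all genes 9.73% and 7.08%), with a median of 0.01. Leaving out 1 of these 4 libraries left 0 higher and 5 to 6 lower. BDKRB1, the inducible bradykinin receptor, went from 7.68 and 8.14 FPKM to 3.88 and 2.72 FPKM (log2 difference -1.06, SE 0.16, adjusted p = 0.0051). PTGER3, a prostaglandin E2 receptor, went from 2.04 and 1.61 FPKM to 0.4003 and 0.355 FPKM (log2 difference -1.03, SE 0.10, adjusted p = 0.00093). The endothelin receptor EDNRA (-0.48) fell by less, and the protease-activated receptor F2RL1 rose (0.58). Of 31 calcium channels, pumps and exchangers 3 rose and 3 fell (9.68% and 9.68%, all genes 7.08% and 9.73%), with a median of 0.03. When 1 of the 4 libraries was left out, 0 to 1 higher and 0 lower were called. TRPV2 (0.60), TRPM4 (0.31) and PIEZO1 (0.26) were higher, and PIEZO2 (-0.39), STIM2 (-0.33) and CACNB3 (-0.31) lower. Of 34 calcium signaling enzymes 3 rose and 1 fell (8.82% and 2.94%, all genes 7.08% and 9.73%), namely CAMK1D (0.39), GNA11 (0.22), PPP3CA, the calcineurin catalytic subunit (0.21), and CAMK1 (-0.40). HGF, PDGFD, HBEGF, PDGFB, VEGFC, PTGER3 and EDNRA held their calls under every alternative, and each of the other calls named here was lost under at least 1 (adjusted p up to 0.2).

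Of 15 tested genes of prostaglandin synthesis and sensing 5 fell and 1 rose (33.3% and 6.67%, all genes 9.73% and 7.08%), with a median of -0.21. PTGS2, the inducible cyclooxygenase, went from 10.8 and 9.74 FPKM to 5.53 and 5.65 FPKM (log2 difference -0.77, SE 0.09, adjusted p = 0.002). PTGES, which makes prostaglandin E2, went from 28.04 and 29.6 FPKM to 15.8 and 15.6 FPKM (log2 difference -0.84, SE 0.08, adjusted p = 0.00099). PTGIS, the prostacyclin synthase (-0.75), and the prostacyclin receptor PTGIR (-0.75) fell with PTGER3, and PTGR1, a reductase that inactivates prostaglandins, rose (0.28). PTGS2 and PTGES were at lower values in each PM10 library than in either library without PM10. With 1 library fewer, 0 to 1 higher and 5 lower were called. Under at least 1 alternative PTGR1 lost its call (adjusted p up to 0.19).

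Of 31 genes of protein digestion and amino acid transport 4 rose and 5 fell (12.9% and 16.1%, all genes 7.08% and 9.73%). Fits lacking 1 of these 4 libraries called 0 to 1 higher and 0 to 2 lower. ANPEP, the brush border aminopeptidase N, was at 0.584 and 0.672 FPKM in inflamed hIECs and 1.47 and 1.18 FPKM with PM10 (0.51, adjusted p = 0.014), a level near 1 FPKM. ATP1B1, a sodium pump subunit, rose (0.46) and its paralog ATP1B2 fell (-0.63), while the transporters SLC38A5 (0.54) and SLC43A1 (-0.43) moved in opposite directions. SLC15A1, the peptide transporter PEPT1, was listed at 0 in all 8 libraries. The exchanger gene SLC8A2 (-0.14, 95% CI -0.36 to 0.08), the calcium channel gene CACNA1G (-0.21, 95% CI -0.43 to -0.0003) and the phospholipase gene PLCD4 (-0.10, 95% CI -0.35 to 0.16), which the study named, were not called. By qPCR, a different assay, the study reported that these genes and SLC15A1 decreased with PM10 in inflamed hIECs. It reported the same for PTGER3, PDGFD, COL13A1 and COL14A1, which were called lower here. Of 10 tight junction genes 2 rose and 1 fell (20% and 10%, all genes 7.08% and 9.73%), and TJP1 (ZO-1) was at -0.04 (95% CI -0.19 to 0.12). CLDN1 (0.31) and CLDN6 (0.94, overlapping TNFRSF12A) were higher and CLDN15 was lower (-0.56). Among epithelial markers, LGR5, a receptor of intestinal stem cells, was at 5.68 and 5.26 FPKM in inflamed hIECs and 8.28 and 7.92 FPKM with PM10 (log2 difference 0.49, SE 0.10, adjusted p = 0.015). The study instead reported, by qPCR, lower expression of LGR5 and of tight junction markers in inflamed hIECs with PM10. LRIG1 rose (0.33), and GATA6 (-0.72) and KRT18 (-0.35) fell, so that 2 of 9 tested markers rose and 2 fell (22.2% and 22.2%, all genes 7.08% and 9.73%). The summed epithelial markers were at 389 and 383.7 FPKM in inflamed hIECs and at 347 and 330 FPKM with PM10, most of which came from KRT8 and from KRT18, at 141 and 126 FPKM in inflamed hIECs and 109 and 100.1 FPKM with PM10. Of 9 neuronal and glial markers STMN2 rose (0.25) and NEFM (-0.56) and SNAP25 (-0.38) fell (11.1% and 22.2%, all genes 7.08% and 9.73%). Of 8 pluripotency markers only DPPA4 (-0.09) and LIN28B (0.08) could be tested, and neither was called. CLDN6, CLDN15, GATA6 and NEFM held their calls under every alternative, and each of the other calls named here was lost under at least 1 (adjusted p up to 0.17).

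Metabolic and organelle genes moved by small amounts. Of 34 genes of glycolysis and hypoxia 9 rose and none fell (26.5% and 0%, all genes 7.08% and 9.73%), with a median of 0.10. Without 1 of the 4 libraries compared, 2 to 3 higher and 0 lower were called. The glucose transporter SLC2A1 was at 21.8 and 22.8 FPKM in inflamed hIECs and 36.5 and 34.5 FPKM with PM10 (log2 difference 0.65, SE 0.08, adjusted p = 0.002). ANGPTL4, an inhibitor of lipoprotein lipase that hypoxia induces, was at 93.7 and 95.96 FPKM in inflamed hIECs and 135 and 134 FPKM with PM10 (log2 difference 0.50, SE 0.06, adjusted p = 0.002), and the lactate exporter SLC16A3 (0.47), NDRG1 (0.34) and PFKFB3 (0.32) rose. Of 35 lysosome and autophagy genes 13 rose and 3 fell (37.1% and 8.57%, all genes 7.08% and 9.73%), with a median of 0.18. Leaving out 1 of these 4 libraries left 2 to 4 higher and 1 to 2 lower. CTSZ (0.41), LAMP2 (0.35), LAMP1 (0.31) and several V-ATPase subunits were higher, and CTSK (-0.48) and CD63 (-0.36) lower. CD68, known from phagocytes, was at 0.399 and 0.333 FPKM in inflamed hIECs and 1.11 and 1.83 FPKM with PM10 (0.84), a very low level, and overlaps other expressed genes. It was the only called member of 13 genes of scavenging and endocytosis (7.69% and 0%, all genes 7.08% and 9.73%), among which RAB7A was at 0.14, CAVIN1 at 0.04 and CLTA, a clathrin light chain, at 0.12. Of 32 genes of cholesterol and fatty acid synthesis, 4 rose, among them INSIG1 (0.38) and ACLY (0.27), and HMGCS1 fell (-0.28) (12.5% and 3.12%, all genes 7.08% and 9.73%). Every alternative kept the calls of SLC2A1, ANGPTL4 and CTSK, and at least 1 removed each of the others named here (adjusted p up to 0.2).

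Some of the largest values belong to genes whose FPKM is uncertain. BEST1, an ion channel gene of the eye, had the lowest difference (-2.68), with 22.8 and 15.4 FPKM in inflamed hIECs and 3.201 and 1.26 FPKM with PM10, but it overlaps the far more abundant FTH1, and unstranded libraries cannot separate them. CYP1B1-AS1 (0.647 and 0.965 FPKM in inflamed hIECs and 6.36 and 5.59 FPKM with PM10) overlaps CYP1B1 in the same way. The mitochondrial tRNA genes MT-TR (-1.78), MT-TG (-1.76), MT-TL2 (-1.54) and MT-TS2 (-1.53) are shorter than a sequencing read. The pseudogene HSPD1P6 (-1.57) resembles its parent gene. LY6G5B (-1.40), AC005324.3 (1.85), IL12A-AS1 (1.28), AL096870.3 (-1.49), AL358781.1 (-1.44) and AP002956.1 (0.79) also had large differences, and each overlaps another gene at 10% or more of its own level. Such overlap also touches ADAM19, ATP1B1, BCL2L11, CAMK1, CCNA2, COL19A1, CTSZ, DNAJB1, GATA6, GINS2, HFE, IFIT3, IRF9, KIF20A, KRT8, KRT18, LRIG1, MDM2, MT-CO3, NFKBIZ, PIEZO1, PLCD4, PPP3CA, SLC16A3, SLC39A7, STAT5A, STAT5B, TGFB2, TGM2 and TXNRD2. Other genes described here had no such neighbour. The retinaldehyde reductase gene DHRS3, a target of retinoic acid, went from 8.61 and 8.302 FPKM to 2.23 and 2.27 FPKM (log2 difference -1.54, SE 0.09, adjusted p = 0.00011), and the imprinted noncoding RNA H19 from 19.98 and 15.3 FPKM to 5.58 and 5.38 FPKM (log2 difference -1.51, SE 0.15, adjusted p = 0.0011). KCNE4, a potassium channel subunit, was at 6.06 and 6.51 FPKM in inflamed hIECs and 18.2 and 18.1 FPKM with PM10 (log2 difference 1.40, SE 0.08, adjusted p = 0.00011). PLEKHA7, of the adherens junction, was at 2.97 and 2.77 FPKM in inflamed hIECs and 9.13 and 9.16 FPKM with PM10 (log2 difference 1.39, SE 0.08, adjusted p = 0.00012). MYCT1 (1.34), SPOCD1 (1.20), the decoy receptor gene TNFRSF11B (1.05) and NT5E (CD73, 0.97) rose. Of the 13 protein genes of mitochondrial DNA, only MT-ND4L was called (-0.46), which overlaps MT-ND4. In a fit of the 4 inflamed libraries alone, and without either of the normal libraries, 10 of the 13 were called lower, and without 1 of the 4 libraries compared none was. These 13 had a median of -0.15, and MT-CO1 was at 10354 and 10462 FPKM in inflamed hIECs and 8329 and 8387 FPKM with PM10 (-0.32, adjusted p = 0.18, or 0.0012 with only the 4 inflamed libraries in the fit). The 2 normal libraries without PM10 stood far apart, at 10994 and 16063 FPKM. MT-CO2 (-0.08) and MT-CO3 (-0.10) were not called either. The calls of LY6G5B and MT-ND4L were each lost under at least 1 alternative (adjusted p up to 0.16).

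Among 26 tested genes that the study named for these cells, 2 rose and 5 fell (7.69% and 19.2%, all genes 7.08% and 9.73%), with a median of -0.04. These names were chosen on the same libraries and are not independent evidence of a direction. The signal transducers STAT5A (-0.02) and STAT5B (-0.05), the interferon regulators IRF7 (-0.28) and IRF9 (0.26), the adaptors TRAF1 (0.27), TRAF2 (0.01) and TRAF3 (0.11), TRIM22 (0.05) and WARS, the tryptophanyl-tRNA synthetase (0.06), were not called.

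The effect of PM10 in normal hIECs was set beside that in inflamed hIECs. The 2 comparisons share no library, but both use the same estimate of each gene's spread from all 8 libraries. Their calls are therefore not independent. In normal hIECs 1299 of the 13016 genes were called (9.98%), 784 higher and 515 lower. A total of 455 genes were called in both, which is 20.8% of the calls in inflamed hIECs and 35.0% of those in normal hIECs, and 372 of them moved the same way. Across all genes, which are not independent replicates, the differences had a Pearson correlation of 0.262. The interaction, the difference in inflamed cells minus that in normal cells, was called for 927 genes (7.12%), 305 with a higher and 622 with a lower value in inflamed cells. The interaction was not called for BMF, at 14.5 and 12.6 FPKM in normal hIECs and 27.4 and 28.1 FPKM with PM10 (difference 0.99, interaction -0.10, 95% CI -0.35 to 0.14), for MMP13 (difference in normal hIECs 0.54, interaction 0.12, 95% CI -0.07 to 0.30) or for MMP1 (0.70, interaction 0.45, 95% CI 0.09 to 0.81), all of which rose in both.

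Several genes moved in opposite directions, each called in both comparisons and in the interaction. ITGA1 fell in normal hIECs from 10.9 and 8.87 FPKM to 4.45 and 4.42 FPKM (-0.996, adjusted p = 0.0021) and rose in inflamed hIECs (interaction 1.54, adjusted p = 0.0013). TGM2, transglutaminase 2, fell from 11.8 and 8.78 FPKM to 4.75 and 4.25 FPKM in normal cells and was at 26.03 and 27.3 FPKM in inflamed hIECs and 36.01 and 36.5 FPKM with PM10 (interaction 1.45, adjusted p = 0.0038). ANKRD1, a mechanical stress gene, fell from 234 and 193 FPKM to 120.1 and 117 FPKM and was at 316 and 319 FPKM in inflamed hIECs and 549 and 550.4 FPKM with PM10 (interaction 1.63, adjusted p = 0.001). These genes thus ended higher with PM10 in inflamed cells and lower with PM10 in normal cells, with no overlap of libraries in either. The reverse held for PTGER3, which rose in normal hIECs from 5.29 and 5.99 FPKM to 9.07 and 8.905 FPKM (interaction -1.62, adjusted p = 0.0013), and for the prolyl hydroxylase gene P4HA3 (overlapping PPME1), from 6.45 and 6.59 FPKM to 10.9 and 10.7 FPKM in normal cells and 10.97 and 11.8 FPKM in inflamed hIECs and 9.25 and 9.36 FPKM with PM10 (interaction -0.92, adjusted p = 0.0016). The PM10 difference was higher in inflamed than in normal hIECs for CXCL8 (interaction 1.41, adjusted p = 0.0044), CXCL1 (1.87, adjusted p = 0.00032) and CCL7 (0.47, adjusted p = 0.026), the last of which reached at most 8.44 FPKM in normal hIECs. For CXCL1 the interaction exceeded the difference in inflamed hIECs (1.38), so CXCL1 had a negative difference with PM10 in normal hIECs. In normal cells, MFAP4, GDF15, HGF and MGP had differences of 0.03, 0.03, -0.07 and -0.22 against interactions of -1.57, -1.20, -0.93 and -1.60. NEAT1, a nuclear noncoding RNA, went from 25.8 and 15.9 FPKM to 42.8 and 41.2 FPKM in normal hIECs and from 56.9 and 56.2 FPKM to 33.1 and 35.5 FPKM in inflamed hIECs (interaction -1.72, adjusted p = 0.01). In inflamed hIECs the PM10 calls of TGM2, P4HA3 and NEAT1 were each lost under at least 1 alternative (adjusted p up to 0.18), and that of ANKRD1 was kept under all.

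**Figure D5:**
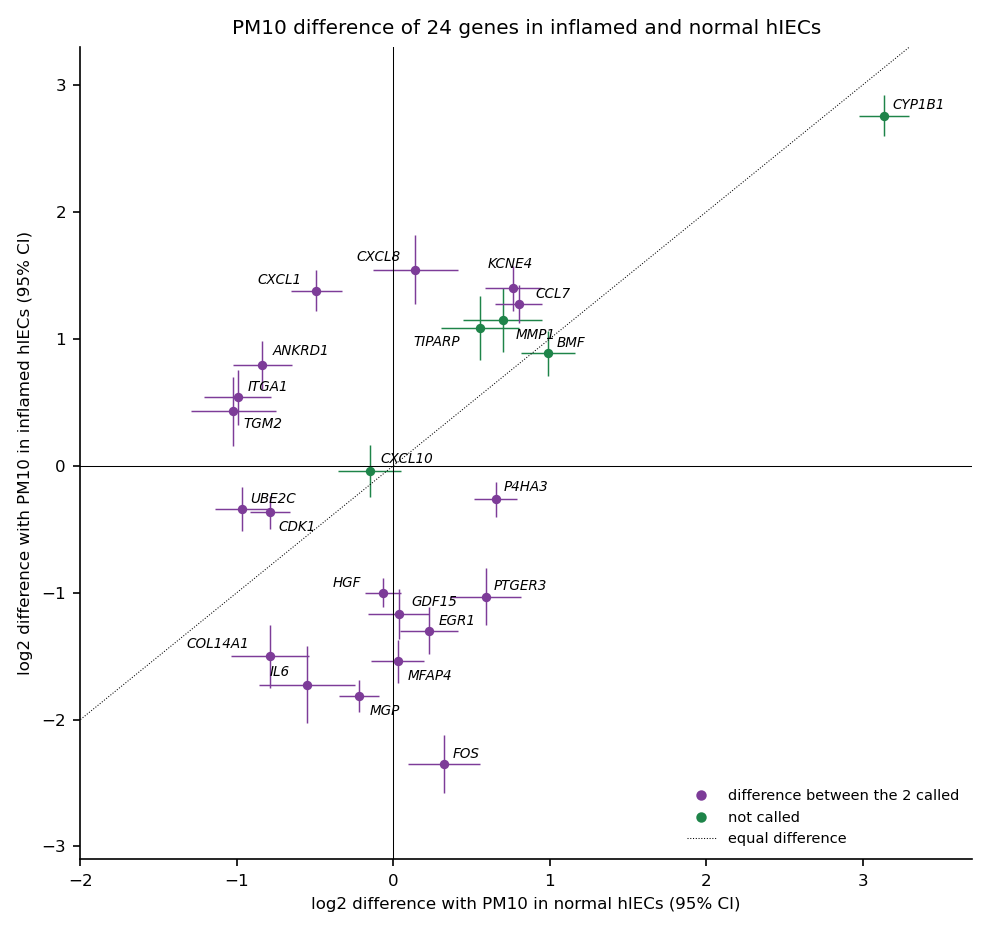
Difference with PM10 in inflamed hIECs (vertical axis) against that in normal hIECs (horizontal axis) for 24 named genes, log2 scale, with 95% confidence intervals from limma and a dotted line of equal difference. Purple marks genes whose interaction was called. CYP1B1, TIPARP, MMP1 and BMF lie near the dotted line, ITGA1, TGM2 and ANKRD1 lie in the upper left, and FOS and MFAP4 lie below 0 at small differences in normal cells.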

How the data were processed

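Poly-A RNA-seq libraries without strand information of 2D hIECs were made, 8 in all, 2 for each of 4 groups, and the labels gave each group. The authors trimmed reads with Cutadapt 3.7 and Sickle 1.33 (Phred 20, at least 50 bases), aligned them to GRCh38 with HISAT2 2.2.1 and deposited FPKM values from StringTie 2.2.0, 1 per gene and library. The annotation release is not given in the sources used here, and positions and overlaps came from GENCODE.

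FPKM values are not counts, so no count test was run and read depth is unknown. Genes were kept when 2 or more of the 4 inflamed libraries reached 1 FPKM, and log2(FPKM + 1) was fitted over all 8 libraries with limma 3.58.1 in R 4.3.3, letting the prior variance follow the mean level, with 4 residual degrees of freedom. P-values were adjusted over all 13016 genes by the Benjamini-Hochberg method. The contrasts were PM10 in inflamed hIECs, PM10 in normal hIECs and their difference. The fit was tested on simulated data. Members and the 42 gene lists were chosen with earlier results of these data known. Named genes were the 15 with the largest called difference in each direction at a mean of at least 2 FPKM and with no overlap between groups, up to 5 called members of each list (3 of the highest level where fewer than 2 were called), genes the study named, and the 10 with the largest interaction in each direction. Further members of the lists, and KRT8, were added after their values were seen. Some genes under this rule are not reported here. Alternatives changed the pseudocount, filter, scaling, gene types, variance model, block and libraries.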

Additional observations from a re-analysis of the deposited data

Results flagged for a closer look

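The PM10 difference in inflamed hIECs departed from that in normal hIECs, by limma's test of the interaction, for 927 of the 13016 genes (7.12%). Among the 285 named genes it did for 127, and for 17 of the 22 whose interaction is reported, but genes were named partly for large interactions or large PM10 differences, so nothing is read from these 2 counts. Each value is the difference in inflamed cells minus that in normal cells on the log2(FPKM + 1) scale. Among early response and stress genes it was -2.68 for FOS, -1.53 for EGR1 and -1.20 for GDF15. For matrix and growth factor genes it was -1.60 for MGP, -1.57 for MFAP4, -0.93 for HGF and -0.92 for P4HA3. PTGER3 stood at -1.62 and the noncoding RNA NEAT1 at -1.72. Positive values were those of the chemokine genes CXCL1 (1.87), CXCL8 (1.41) and CCL7 (0.47) and of the mitotic genes CDK1 (0.42) and UBE2C (0.63), which fell less in inflamed cells. ANKRD1 (1.63), ITGA1 (1.54) and TGM2 (1.45) rose with PM10 in inflamed cells and fell in normal cells. The 2 normal libraries without PM10 differed more from each other than those of the other groups, with a median SD of 0.0838 against 0.0478 to 0.0504, and NEAT1 was at 25.8 and 15.9 FPKM in them. The part of this spread in the interactions was not tested.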

How the results depend on the processing

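Of the 245 named genes called with PM10 in inflamed hIECs, all 245 kept their sign under every alternative, 199 stayed called under each alternative that kept all libraries, and 110 under those that left out a library too. In a fit of the 4 inflamed libraries alone, 8 named genes gained a call and 10 lost it. With pseudocounts of 0.1 and 0.5, 61 and 47 genes were called and 2-fold higher and 166 and 108 lower. Quantile normalization called 1401 genes higher and 55 of them 2-fold higher, and 51.3% of its calls were higher, against 42.1%. The called interactions with a higher value numbered 501 after median centring and 494 after quantile normalization. Leaving out 1 library gave between 271 and 1447 higher and 469 and 1623 lower genes, and interactions of between 100 and 469 higher and 189 and 957 lower. For PM10 in inflamed hIECs the lowest counts came without 1 of the 4 compared libraries and the highest without 1 normal library, for the interaction the lowest without 1 library of inflamed or normal hIECs with PM10 and the highest without 1 normal library, and the remaining single library was assumed to vary like the others. The other counts of called genes over all genes stayed within 1.5 times of those reported. Counts within the gene lists are small and moved further. Of the 70 such counts above 0, 33 moved by more than 1.5 times under at least 1 alternative that kept all 8 libraries and 59 without 1 of the 4 compared libraries.

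Only a replicate number links the samples, and nothing states whether same-numbered libraries were made together. Deviations of same-numbered libraries correlated at 0.0144 to 0.0746, which with 2 libraries per group cannot decide this. With the replicate number as a block, 876 genes were higher and 1193 lower.

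Only genes that were not called changed sign. After median centring TRAF2 was at -0.00072 and NFKB1 at -0.0056. After quantile normalization NFKB1 was at -0.0063, ATF4 at 0.013, STAT5A at 0.021, and MT-CO1, MT-CO2 and MT-CO3 at 0, where the method sets equal ranks to equal values. After rescaling without mitochondrial genes ATF4 was at 0.0024. Over the fits that left out 1 library, the ranges were -0.060 to 0.073 for TRAF2, -0.20 to 0.15 for ATF4, -0.0086 to 0.012 for NFKB1, -0.087 to 0.36 for CXCL3, -0.075 to 0.29 for TRAF3, -0.18 to 0.13 for STAT5A, -0.10 to 0.029 for TJP1, -0.14 to 0.66 for IRF9, -0.19 to 0.00036 for PLCD4, -0.18 to 0.026 for BAX and -0.022 to 0.079 for HMOX1. The cause of these changes was not tested. FPKM gives no depth, so no limit of detection could be set beyond the lowest values above 0.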
